A study of Mus musculus with 2 samples.

Results

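The transcription factors WT1, GATA4, GATA6, GATA1, SOX9 and RHOX5 set the identity and function of Sertoli cells and of other somatic cells of the gonad. Their transcripts were compared between 1 array of testis RNA from heterozygous mice (Mili+/-) and 1 from homozygous mutant mice (Mili-/-), both at day 10 after birth. Members were all probe sets annotated to exactly 1 symbol among these 6 genes. This gave 8 probe sets for 5 genes, out of 12422 non-control probe sets and 8251 genes on the array. Sox9 was not analysed here, because no probe set was assigned to it alone. The factors form a group by function, and earlier results on these arrays were known when the group was drawn up.

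Mili, now called Piwil2, encodes a Piwi protein of germ cells that binds small RNAs. The control mice carry 1 mutant allele themselves, and no wild-type array was part of the comparison. The labels name neither the strain nor the number of animals in each sample, and place the meiotic arrest of the mutant in early prophase, with dying cells seen only after the age sampled. Markers of the labelled tissue were present, since Amh and Inha of Sertoli cells and Stra8 and Kit of germ cells exceeded the median signal on both arrays. Not all markers did. Of 25 Sertoli products measured, 20 reached the median on at least 1 array, and of 12 germ cell genes 7 did. Fgf9 and Vim of the first list and Sycp3 and Dmc1 of the second stayed below it on both. The whole testis was measured as bulk RNA. A larger share of somatic cells and more factor RNA per somatic cell therefore cannot be told apart in any value below.

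Sertoli cells enclose and feed the germ cells of the seminiferous tubule. WT1, a zinc finger protein, is needed to form the gonad and later to keep Sertoli cells in their fate. GATA4 and GATA6 bind the GATA motif in genes such as the one for anti-Müllerian hormone and work with the cofactors FOG1 and FOG2. GATA1, best known as the master factor of red cell and megakaryocyte development, is also made by Sertoli cells after birth as the first wave of spermatogenesis proceeds. RHOX5, formerly called Pem, is a homeodomain protein encoded on the X chromosome that Sertoli cells make in response to androgen. SOX9 acts downstream of SRY in male sex determination.

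By their brightest probe sets, 2 of the 5 measured genes had a positive difference on these arrays and 3 a negative one. Rhox5 and Gata1 had higher signals in Mili-/-, by 0.47 and 0.38 on the log2 scale. The second probe set of Gata1 stood at 0.04, so the distance of Gata1 from the other factors depends on the probe set. Wt1, Gata6 and Gata4 stood at -0.14, -0.14 and -0.29. All differences are Mili-/- minus Mili+/- after each array was centred on its median, and the median difference over the 5095 genes compared was -0.13, so Wt1 and Gata6 lay at the middle of the array. With 1 array per genotype there is no replicate spread, no test was possible and no difference can be assigned to genotype. The error that could be estimated was the SD between probe sets of one gene, 0.31 over 720 genes, which covers neither animals nor hybridisations.

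The upstream sequences of Gata1 and Rhox5 are shown because these were the genes that stood higher in Mili-/-, a choice made after their values were seen. They are the 250 bases before the start that RefSeq lists on GRCm38.p6, 5′ to 3′ on the gene's strand. Capitals mark matches on either strand to a GATA motif (AGATAA or AGATAG or TGATAA or TGATAG), a SOX motif (AACAAT) or the motif GNGTGGGNG shared by WT1 and EGR1. Of the 6 factor genes, 2 had an entry in the promoter table used.
Gata1, chrX:7967911-7968160, minus strand: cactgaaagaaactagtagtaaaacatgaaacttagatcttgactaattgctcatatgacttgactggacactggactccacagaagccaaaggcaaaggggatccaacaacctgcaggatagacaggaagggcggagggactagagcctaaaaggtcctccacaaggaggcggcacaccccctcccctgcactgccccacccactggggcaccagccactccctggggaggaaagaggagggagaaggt
Rhox5, chrX:37754358-37754607, plus strand: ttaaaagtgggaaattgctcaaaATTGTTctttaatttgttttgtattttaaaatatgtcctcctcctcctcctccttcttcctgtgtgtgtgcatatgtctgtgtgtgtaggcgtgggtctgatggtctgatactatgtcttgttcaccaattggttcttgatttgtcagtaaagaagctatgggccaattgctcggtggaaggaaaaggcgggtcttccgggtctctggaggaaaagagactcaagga
The Gata1 window held none of the 3 motifs. The Rhox5 window held 1 SOX match, 227 to 222 bases before the start, and no GATA match. A match is a string of letters and not a measured binding site, and no match says only that those letters are not in that window. The listed Gata1 start lies 8753 bases inside the outer end of the gene on the same build, and the arrays do not show which start was used.

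Among single factors, Rhox5 had the largest difference. Its signal was 184.8 in Mili+/- and 275.4 in Mili-/-, a 1.38-fold higher level after centring and a ratio of 1.49 as deposited. Both signals were far above the median signal of their arrays (38.5 and 41.5), so the probe set passed the brightness filter on both. Of the genes compared, 4.08% had a higher difference. Among the 500 genes closest to it in brightness, 1% did, and the central 95% of those genes lay between -0.63 and 0.34. Rhox5 was read by a single probe set, so no further probe set of the gene bears on it. Of the other genes of the Rhox cluster, a run of homeobox genes on the X chromosome, only Rhox6 was measured, and it was dim on both arrays (2.4 and 3.5).

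Gata1 was read by 2 probe sets that passed the filter on both arrays. The brighter gave 92.3 in Mili+/- and 129.9 in Mili-/-, a log2 difference of 0.38 (1.30-fold). The second, whose suffix marks sequence shared with other transcripts, gave 63.5 and 70.5, a log2 difference of 0.04. Both were higher in Mili-/-, but the gap between them was 0.34. Among 637 genes with exactly 2 probe sets past the filter, 39.6% showed a gap at least as wide, and the median gap was 0.26. The size of the Gata1 difference therefore depends on the probe set, and the mean over both was 0.21. Of the 5095 genes compared, 5.65% had a higher difference than the brighter probe set, and of the 500 genes closest in brightness 5.4% did. The value lay inside the central 95% of those genes, -0.69 to 0.52.

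Wt1 gave 314.1 in Mili+/- and 307.1 in Mili-/- on its single probe set. The log2 difference was -0.14, and 53.1% of the genes compared stood higher. The signal of this gonadal master factor was thus nearly the same on both arrays.

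Gata6 gave 182.2 and 178.3 on its brightest probe set, a log2 difference of -0.14. Its remaining 2 probe sets were dim, at 16.2 and 19.3 (0.14) and at 9.2 on each array (-0.11), and did not pass the filter. They cover the same gene but add little, since signals this low lie close to the floors of 6.3 and 7 that were set on the arrays.

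Gata4, the GATA factor of fetal and adult Sertoli cells, was the lowest of the factors, with 182.4 in Mili+/- and 161.1 in Mili-/-. Its log2 difference was -0.29, or 1.22-fold lower, and 26.3% of the genes compared stood lower still. Relative to the median of all genes compared it was -0.16. Its size was below 0.31, the SD between probe sets of one gene. Gata4 itself was read by a single probe set, so its own spread is not known.

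**Figure D1:**
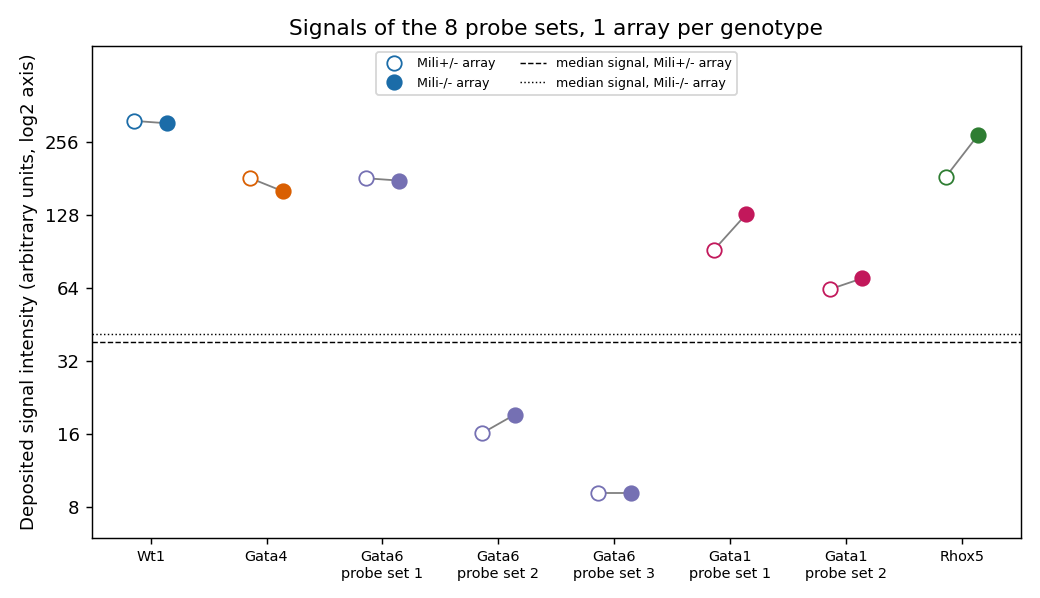
Deposited signal intensity (arbitrary units, log2 axis) of each of the 8 probe sets, with the Mili+/- array as an open and the Mili-/- array as a filled circle, and the median signal of each array as a horizontal line. Rhox5 and the first Gata1 probe set run upward, Wt1 and the first Gata6 probe set are nearly level, and 2 Gata6 probe sets lie below both medians.

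None of the 5 factor genes was 2-fold apart, against 0.844% of the genes compared (0.314% higher and 0.53% lower). That split depended on scaling, with 16 genes higher and 27 lower here, 30 and 17 without centring and 24 and 24 after quantile normalization. None of the factor genes was 1.5-fold apart, against 7.52% of the genes compared. Rhox5 did pass 1.5-fold with a log2 difference of 0.62 after quantile normalization and 0.61 after loess on brightness. The 2 dim probe sets of Gata6 and the second one of Gata1 did not reach 1.5-fold either. The median of the 5 factor genes was -0.14, beside -0.13 for all genes compared, with 2 factors above that value and 3 below. With 5 genes, this median is the value of 1 gene, Gata6.

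**Figure D2:**
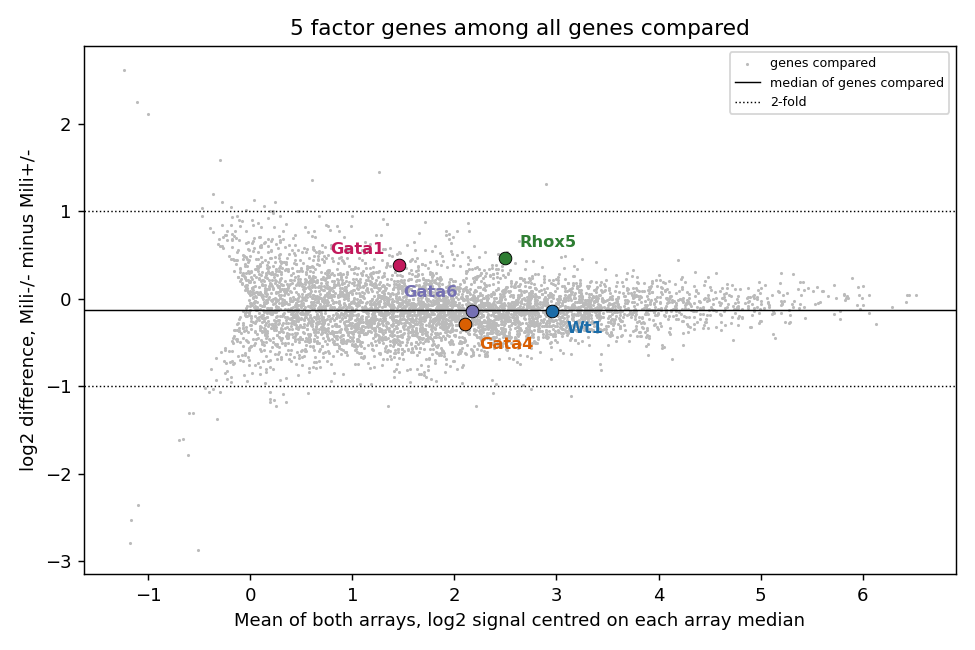
The log2 difference (Mili-/- minus Mili+/-) of each of the 5095 genes compared, plotted against the mean centred log2 signal of both arrays, with the 5 factor genes in colour, a solid line at the median of -0.13 and dotted lines at 2-fold. Rhox5 (0.47) lies above the central 95% of the genes of its brightness, Gata1 (0.38) lies in the upper part of that range, and Wt1, Gata6 and Gata4 lie inside the dense band.

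The signal of one factor relative to another on the same array is free of the scaling between arrays. The ratio of Rhox5 to Wt1 was higher in Mili-/- by 1.52-fold, that of Rhox5 to Gata6 by 1.52-fold and that of Rhox5 to Gata4 by 1.69-fold. For the brighter Gata1 probe set the corresponding values were 1.44-fold against Wt1, 1.44-fold against Gata6 and 1.59-fold against Gata4. With the second Gata1 probe set they were 1.14-fold, 1.13-fold and 1.26-fold. The ratio of Rhox5 to Gata1 differed by 1.06-fold and that of Wt1 to Gata6 by 1.001-fold. Against each of Wt1, Gata6 and Gata4, the ratio with Rhox5 differed more than that with Gata1. These ratios restate the log2 differences given above, so their order follows from them. The ratios with Gata1 depended on the probe set, and no ratio shows which of its genes differed.

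Rhox5 and Gata1 share their chromosome, a property the choice of genes did not use. Both lie on the X chromosome, while Wt1, Gata4 and Gata6 lie on chromosomes 2, 14 and 18. The X chromosome as a whole had about the same median as the autosomes. The 155 X-linked genes compared had a median difference of -0.12, and 81 of them (52.3%) lay above the median of all genes, beside a median of -0.13 in 4929 autosomal genes. Among the X-linked genes, 7 stood higher than Rhox5 and 9 higher than Gata1.

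With 2 arrays a gene's pattern is a single difference, and many genes share it. Within 0.05 of Rhox5 there were 87 genes compared, the nearest being Flt3 (59.7 and 89.0) and Fgf4 (68.6 and 102.3). Within the same distance of Gata1 there were 113, the nearest H2-K2 and Lrpap1. For Gata4 there were 622, with Dync1i2 and Tm2d2 nearest, for Wt1 823, with Rnf44 and Ptcd2, and for Gata6 828, with Psmd8 and Cmtr1. Likeness was the gap between log2 differences over these 2 arrays, so it singles out no gene.

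Other transcription factors of gonadal somatic cells went both ways. Of 30 listed, 22 were measured and 17 passed the filter, with a median of 0.03. Of these 17, 11 lay above and 6 below the median of all genes compared, and none was 2-fold apart. The median was -0.02 over the 15 genes that passed on both arrays. Without the filter the list's median was no higher than that of all genes, at -0.0076 relative to it.

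Nr5a1 encodes SF-1, the nuclear receptor that works with GATA4 and WT1 on the promoters of Sertoli and steroidogenic genes. It gave 602.2 in Mili+/- and 883.4 in Mili-/-, a log2 difference of 0.44. Its further probe sets past the filter gave 374.6 and 526.1 (0.38) and 166.5 and 191.7 (0.09). All 3 probe sets past the filter were thus higher in Mili-/-. Hey1, a repressor downstream of Notch, gave 37.3 and 55.8 (0.47) and reached the filter's signal only in Mili-/-, so a higher value was favoured. The cyclic AMP response factor gene Creb1 gave 32.5 and 49.1 (0.49), also past the filter through Mili-/- alone, while its other probe set past the filter stood at -0.09. Cbx2, a Polycomb gene needed for male sex determination, was lower, at 141.1 and 108.3 (-0.49).

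Dmrt1, named here after its values were seen, is a factor of both Sertoli cells and germ cells and gave 629.9 and 505.5 (-0.43). Its value was close to those of the Sertoli products Inhbb and Hsd17b1 and of Cbx2, and lay inside the range of the germ cell genes. Nr0b1, which encodes the X-linked nuclear receptor DAX1 and was also named after its values were seen, gave 357.2 and 401.5 (0.06).

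GATA family members and partner proteins stood slightly low. Of 13 listed, 11 were measured and 6 passed the filter, with a median of -0.26, and 5 of the 6 lay below the median of all genes compared. Zfpm1, which encodes the GATA cofactor FOG1, gave 263.5 and 227.7 (-0.32). Lmo4 gave 378.0 and 316.4 (-0.37), the coactivator gene Crebbp 61.4 and 52.8 (-0.33) and the adaptor gene Lmo2 55.7 and 52.1 (-0.21). These partners were nearer to Gata4 (-0.29) than to the brighter Gata1 probe set (0.38). The same holds for most genes compared, whose median was -0.13, so it is no trait of the partners. No difference in this list was 2-fold.

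Partners of WT1 and SOX9 gave a median of -0.21 over 8 genes past the filter, of 9 measured and 12 listed, with 3 above and 5 below the median of all genes. Pawr, which encodes a WT1-binding repressor, gave 59.9 and 51.6 (-0.33). The heat shock gene Hspa1a stood at -0.31 and Ciao1 at -0.28. Wtap, named for the WT1-associated protein, gave 143.2 and 129.2 (-0.26), but a second probe set of it past the filter stood at 0.30.

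Sertoli cell products, several of them known targets of these factors, were mostly above the array median difference. Of 30 listed, 25 were measured and 20 passed the filter, and 16 of the 20 lay above the median of all genes compared, with a list median of 0.06. Amh, activated by SOX9, GATA4 and WT1, gave 61.6 and 96.5 (0.54). Shbg, which encodes androgen-binding protein, gave 181.9 and 272.2 (0.47). Inha, the inhibin alpha subunit gene, gave 710.4 and 946.2 (0.30). These 3 were higher in Mili-/- beside Rhox5.

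The desert hedgehog gene Dhh gave 578.8 and 690.1 (0.14), with a second probe set past the filter at 0.15. The follicle-stimulating hormone receptor gene Fshr gave 121.3 and 137.0 (0.07). The inhibin beta B gene Inhbb, at 163.8 and 129.9 (-0.44), and the steroid dehydrogenase gene Hsd17b1, at 57.7 and 45.5 (-0.45), were lower. Sertoli products therefore did not differ as 1 block, and none was 2-fold apart. The list's summed deposited signal was 9980 in Mili+/- and 11534 in Mili-/-. Such sums, here and for the lists below, are not centred and carry the shift of 0.11 (log2) between the array medians. Shbg and Amh had been seen to be higher in earlier results on these arrays, so they are no independent evidence.

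Genes with and without a GATA motif in the upstream 250 bases had nearly the same median difference. The 795 genes compared that had such a match had a median difference of -0.11, beside -0.13 in the 3352 without one. For the SOX motif the medians were -0.09 in 267 genes and -0.13 in 3880, and for GNGTGGGNG -0.09 in 762 and -0.13 in 3385. Over all 32851 promoter entries of the same length, 26.5% held a GATA match, 9.42% a SOX match and 12.7% a GNGTGGGNG match. Of the 22 Sertoli products with a promoter entry, 7 (31.8%) held a GATA match in at least 1 entry. By promoter, 7 of the 28 entries of these genes (25.0%) held one. Among the genes compared that had an entry, the share was 19.2%. That share covers only genes past the filter. The shares of Sertoli products also count products that were dim or not measured, among them Fgf9 and Nts, which held a match. Shbg and Gdnf each had a window with 2 matches and are shown for that reason, with the matches in capitals. Those of Shbg lie 209 to 204 and 80 to 75 bases before the start. Those of Gdnf overlap, at 88 to 83 and 84 to 79 bases before the start of the second of its listed promoters.
Shbg, chr11:69617906-69618155, minus strand: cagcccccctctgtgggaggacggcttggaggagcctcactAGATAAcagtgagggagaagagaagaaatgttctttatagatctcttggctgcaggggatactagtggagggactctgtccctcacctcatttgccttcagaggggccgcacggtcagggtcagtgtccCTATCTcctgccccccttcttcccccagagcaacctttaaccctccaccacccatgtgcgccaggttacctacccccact
Gdnf, chr15:7813477-7813726, plus strand: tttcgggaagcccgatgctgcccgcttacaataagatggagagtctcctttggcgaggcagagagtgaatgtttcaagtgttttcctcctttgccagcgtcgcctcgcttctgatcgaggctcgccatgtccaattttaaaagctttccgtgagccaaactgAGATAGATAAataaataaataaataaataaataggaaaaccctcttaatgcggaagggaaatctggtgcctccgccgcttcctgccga
The Sertoli products with a GATA match and past the filter stood at 0.47 for Shbg, 0.19 for Gja1, 0.07 for Gdnf, 0.06 for Tjp1 and -0.44 for Inhbb. A second Gja1 probe set past the filter went the other way (137.9 and 126, -0.24). These products thus spread over most of the range of the list.

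Germ cell markers past the filter were mostly lower, to unequal degrees, on the array where Rhox5 was higher. Of 7 germ cell genes past the filter (of 12 measured and 16 listed), 6 lay below the median of all genes compared, with a list median of -0.53. The median was -0.41 over the 6 genes that passed on both arrays. Relative to the median of all genes it was -0.41 with the filter and -0.16 over all 12 measured genes without it. Their lowest were Sall4 (57.4 and 34.7, -0.84), which passed the filter through Mili+/- alone, Stra8 (302.7 and 198.1, -0.72), Kit (205.1 and 143.9, -0.62) and Zbtb16 (219.5 and 163.7, -0.53). Ddx4 (245.6 and 243.9, -0.12), Sycp1 (-0.29) and Dazl (-0.28) lay nearer to the median of all genes. A second Dazl probe set past the filter stood at -0.52. Ddx4, Sycp1 and Dazl were named after their values were seen. The list's summed signal over measured genes was 2634 in Mili+/- and 2222 in Mili-/-. No germ cell gene was listed at 0. The part of this shift in the Rhox5 and Sertoli product values was not tested.

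Several red cell genes had higher signals on the array where Gata1 was higher. Of 27 listed, 19 were measured and 7 passed the filter, 6 of them above the median of all genes compared, with a median of 0.58. The membrane gene Tspo2 gave 44.3 and 92.4 (0.95), the haem synthesis gene Alas2 34.1 and 65.1 (0.82), the blood group gene Rhd 25.2 and 46.5 (0.77) and the ankyrin gene Ank1 60.3 and 97.2 (0.58). Alas2 and Rhd passed the filter through Mili-/- alone, and the median was 0.28 over the 5 genes that passed on both arrays. Relative to the median of all genes, the list's median was 0.70 with the filter but 0.098 over all 19 measured genes without it. The beta globin gene Hbb-b2 gave 649.5 and 785.9 (0.17) and the transferrin receptor gene Tfrc 332.4 and 302.9 (-0.24), both named after their values were seen.

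Further genes of that list are given as known GATA1 targets, whatever their values. The alpha globin gene Hba-a1 gave 1396.8 and 1827.9 (0.28). Klf1, a red cell transcription factor, gave 31.2 and 38.2, and the erythropoietin receptor gene Epor 25.2 and 20, both too dim to pass. The red cell list summed to 2729 in Mili+/- and 3413 in Mili-/- over measured genes, and none was listed at 0.

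Mast cells, eosinophils and megakaryocytes also use GATA1. Of 13 of their genes measured, of 17 listed, 1 passed the filter, the tryptase gene Tpsb2 (63.4 and 94.4, 0.46), with a second probe set at 0.48. That list summed to 146 and 202, and no gene of it was listed at 0. The part of red cells and of these other blood cells in the Gata1 difference was not tested.

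**Figure D3:**
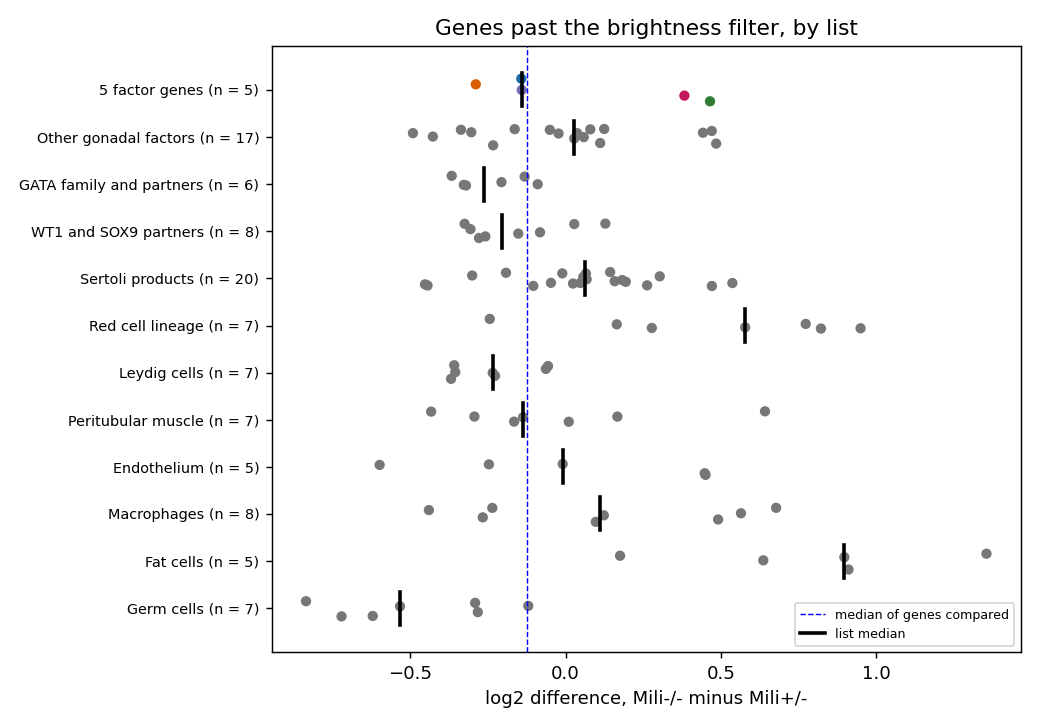
The log2 difference (Mili-/- minus Mili+/-) of each gene past the brightness filter in 12 lists, with a black bar at each list's median and a dashed line at the median of all genes compared (-0.13). Sertoli products lie mostly right of the dashed line and germ cell genes left of it except 1. Of 7 red cell genes, 6 lie right of it, 4 of them far right, while the 5 factor genes are split. Among those 4 red cell genes, Alas2 and Rhd passed the filter through Mili-/- alone, which favours a high value.

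Rhox5 and Gata1 stayed above the median of all genes compared and Gata4 below it under the settings tried. Several settings could hardly show otherwise. Changing the filter, raising the floor or leaving out shared-sequence probe sets left each factor's own log2 difference as reported, where it was compared. No centring and no floor left each value relative to that median unchanged. The second Gata1 probe set alone (0.04) was not a setting. Relative to the median of all genes compared, Rhox5 ranged from 0.52 to 0.63 and Gata1 from 0.32 to 0.53. Gata4 ranged from -0.23 to -0.13. Wt1, from -0.09 to 0.01, and Gata6, from -0.09 to 0.07, stayed close to 0 and took both signs. The lowest Gata1 value came from averaging both of its probe sets.

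**Figure D4:**
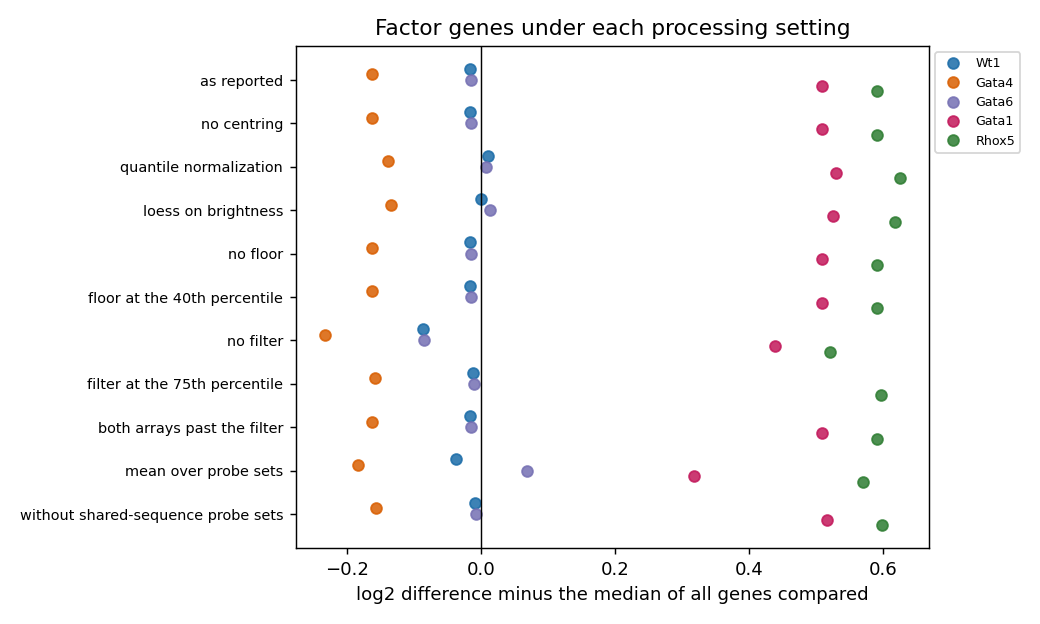
The log2 difference of each factor gene minus the median of all genes compared, under each processing setting, 1 row per setting and 1 colour per gene. Rhox5 and Gata1 lie between 0.32 and 0.63 in every row that holds them, Gata4 between -0.23 and -0.13, and Wt1 and Gata6 near 0; Gata1 has no value with the filter at the 75th percentile.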

How the data were processed

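Values were the linear signal intensities deposited for 1 Mili+/- and 1 Mili-/- array. Judged by the values, the deposited table had been scaled to a common level, and the software behind it is not given in the sources used here. Of 12488 probe sets, 66 controls were left out. The platform annotation gave 1 symbol to 10833 probe sets, and 10817 of these were matched by Entrez ID to RefSeq genes (GRCm38.p6).

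A floor was set at each array's 20th percentile (6.3 and 7). The log2 signals then had the array median subtracted, which removed a deposited shift of 0.11. A gene took its brightest probe set, and was compared if either array reached its median signal. No p-value is given, since each genotype had 1 array, and the number of arrays limits the precision. The code was tested on simulated data.

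Members and lists were chosen with earlier results of these data known. From each list, the up to 4 genes past the filter with the largest absolute difference were named, plus preset targets; exceptions are marked. Alternatives covered scaling, floor, filter, probe set choice and fold threshold. The setting called without shared-sequence probe sets left out every probe set with the suffix _f_at, _s_at, _g_at, _i_at or _r_at. It went by suffix alone, and whether each such probe set shares sequence was not checked. Python 3.11.15, NumPy 2.4.6, pandas 2.3.3 and statsmodels 0.14.6 were used.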

Additional observations from a re-analysis of the deposited data

How the results depend on the processing

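No paired analysis was possible because each genotype had 1 array. For the 5 factor genes, all 49 alternative values lay within 0.31 (the SD between probe sets of one gene) of the reported ones. Many could not differ, since the filter, the higher floor and leaving out shared-sequence probe sets did not alter a factor's own value. The counts of genes past 2-fold, 16 higher and 27 lower, were less stable. They were 126 and 257 at 1.5-fold, 3 and 7 at 3-fold, 157 and 148 without the filter, 2 and 5 with it at the 75th percentile, 2 and 6 with both arrays past it, 30 and 17 without centring, and 24 and 24 after quantile normalization. There were 25 higher after loess, 10 higher without shared-sequence probe sets and 16 lower with the higher floor (40th percentile). The median of all genes, -0.13 with centring, was -0.02 without it, -0.0074 after quantile normalization and -0.0081 after loess. List medians relative to all genes depended on the filter. Without it they were -0.0076 for other gonadal factors, 0.10 for Sertoli products, 0.098 for red cell, 0.42 for endothelial, 0.82 for fat and -0.16 for germ cell genes. With it at the 75th percentile they were 0.30 for red cell, -0.12 for endothelial and -0.28 for germ cell genes. With both arrays past it they were 0.40 for red cell and -0.29 for germ cell genes. With the mean over probe sets they were 0.52 for red cell and 0.74 for fat genes. Fewer or more genes entered under each filter. The mean over probe sets kept the same genes but also took dim probe sets into their values, such as those of Ank1 and Scd1 at 0.04. Signals near the floor limit what the dim Gata6 probe sets can show.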

Other observations

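Markers of other cells of the testis showed no single direction. Leydig cell genes lay slightly low, with a median of -0.23 over 7 genes past the filter (of 9 measured) and 5 of the 7 below the median of all genes compared. Their lowest were the androgen synthesis gene Cyp17a1 (283.2 and 236.7, -0.37), Thbs2 (-0.36), Hsd3b1 (-0.36) and the electron carrier gene Fdx1 (-0.23). Peritubular muscle genes had a median of -0.14 over 7 genes, with Actg2 at 0.64, Myh11 at -0.43, Pdlim3 at -0.29 and Cnn1 at 0.17. The 5 endothelial genes centred on -0.01, between Mcam (-0.60) and Pecam1 (0.45), with Eng at -0.25 and Cdh5 at 0.45. Pecam1 passed the filter through Mili-/- alone, and the median was -0.13 without it. The 8 macrophage genes centred on 0.11, with Cx3cr1 at 0.68 (also through Mili-/- alone), Mpeg1 at 0.57, Cd74 at 0.49 and Lyz2 at -0.44.

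Fat cell genes had a median of 0.90 over 5 genes past the filter, of 8 measured. Car3, Adipoq and Fabp4 passed through Mili-/- alone, which favours a high median. Car3 gave 36.7 and 101.4 (1.36), Scd1 69.1 and 140.3 (0.91), Adipoq 26.2 and 52.7 (0.90) and Fabp4 33.9 and 56.9 (0.64). Of these 5 genes, 2 passed the filter on both arrays, with a median of 0.54. Genes of mesothelium, rete and epididymis were mostly dim, and 2 of 10 passed the filter, Upk3b (0.30) and Cdh1 (-0.31).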
